A study of Mus musculus with 6 samples.

Results

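Genes that are used as markers of macrophages and of complement C1q were followed in gastrocnemius muscle: C1qa, C1qb, C1qc, Csf1r, Cd68, Mrc1, Cd163, Lyz2, Trem2 and Cx3cr1. These 10 genes were chosen by name as a set, with no threshold on their values, and all 10 were found among 23997 gene symbols. Of these, 9 passed a filter on low values (a mean of at least 0.5 FPKM over the 6 libraries), which left 13359 genes to test, and Trem2 did not pass it. FPKM is the number of sequenced fragments scaled to the length of the transcript and to the number of mapped fragments. The study compared 3 HrasG12V mice (Caggs-Cre+/HrasG12V/+), a model of Costello syndrome that carries 1 activated Hras allele, with 3 WT littermates (Caggs-Cre-/HrasflG12V/+). The WT mice also carried the G12V allele, but floxed and, without Cre, not expressed, and their labelled genotype is Hras+/+. In the HrasG12V mice the Cre was driven by the broadly active CAG promoter and not by a promoter restricted to muscle fibers. All mice were untreated and 21 days old, each gave 1 library of whole muscle, and sex was not given. The mice are named here by their numbers, 2277, 2280 and 2281 for WT and 2276, 2278 and 2279 for HrasG12V.

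Macrophages in skeletal muscle lie in the connective tissue between fibers, clear debris and help fibers regenerate after injury. They are also a main source of C1q, the protein that binds antibody complexes and dying cells and starts the classical complement pathway. C1q is built from 3 different chains, A, B and C, which are encoded by C1qa, C1qb and C1qc and assemble in equal numbers. Csf1r is the receptor for the growth factors Csf1 and Il34, on which most macrophages depend, and Cx3cr1 is the receptor for the chemokine Cx3cl1. Cd68 is a protein of the endosome and lysosome, and Lyz2 is the lysozyme of macrophages, monocytes and neutrophils. Mrc1, the mannose receptor, and Cd163, the receptor that takes up haptoglobin bound to hemoglobin, mark resident macrophages of many tissues. Trem2 is a lipid-sensing receptor that signals through the adaptor Tyrobp.

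The C1q genes lie side by side on chromosome 4 (GRCm38, GENCODE annotation), all on the minus strand. C1qb covers chr4:136880129-136886187, C1qc covers chr4:136889804-136893065 and C1qa covers chr4:136895917-136898803. The cluster spans 18675 bp, with gaps of 3616 bp between C1qb and C1qc and of 2851 bp between C1qc and C1qa, and each gene has 3 exons. The other members are spread over chromosomes 2 (Mrc1), 6 (Cd163), 9 (Cx3cr1), 10 (Lyz2), 11 (Cd68), 17 (Trem2) and 18 (Csf1r).

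Promoter sequence from RefSeq (GRCm38.p6) was matched by symbol for 8 of the 10 genes, and is shown because PU.1, the product of Spi1, is a transcription factor of macrophages and its own transcript is given among the partners of the members. The letters AGGAAGT, which belong to the kind of site that PU.1 and other ETS factors bind, were searched on both strands (ACTTCCT on the opposite one) in the 250 bases before the start of transcription. They were found in 4 of the 8 promoters, those of C1qb, C1qc, Mrc1 and Lyz2, against 2525 of 32851 promoters of all genes (7.69%). The letters were chosen with these sequences in view, a match is a description of the sequence only, and no binding was measured. Counted from the RefSeq start, the matches lie from 53 to 47 bases before it for C1qb, 195 to 189 for C1qc, 211 to 205 for Mrc1 and 100 to 94 for Lyz2. The start of the GENCODE gene differs from the RefSeq start by 13 bases for C1qb, 151 for C1qc, 22 for Mrc1 and 49 for Lyz2, and counted from it the matches lie 66 to 60, 44 to 38, 189 to 183 and 51 to 45 bases upstream. Each is given within 51 bases, written 5′ to 3′ on the strand of its gene, with the motif in capitals. The windows are chr4:136886225-136886275 (minus strand) for C1qb, chr4:136893081-136893131 (minus) for C1qc, chr2:14229181-14229231 (plus) for Mrc1 and chr10:117282344-117282394 (minus) for Lyz2, all upstream of the annotated exons.
C1qb: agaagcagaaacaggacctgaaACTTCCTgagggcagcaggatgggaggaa
C1qc: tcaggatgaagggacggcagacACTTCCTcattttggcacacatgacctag
Mrc1: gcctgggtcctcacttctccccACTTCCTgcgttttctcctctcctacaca
Lyz2: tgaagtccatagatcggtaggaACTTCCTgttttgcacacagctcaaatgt

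The libraries differ in ways that touch the results. Summed FPKM ranged from 413020 to 814013, which is not a depth, and the median over the tested genes ranged from 6.39 to 6.64. Genes of other immune cells were high in HrasG12V mice 2278 and 2279: 9 B cell genes summed to 0.905 to 1.54 FPKM in WT and to 1.85, 101 and 81.3 FPKM in mice 2276, 2278 and 2279. For 6 lymph node stroma genes the sums were 2.65 to 7.93 FPKM in WT and 6.97, 253 and 381 FPKM in the same mice. Of 12 fast muscle genes, 6, such as Mylpf, a myosin light chain, were listed above 0 in every library. Acta1, Myh4 and Atp2a1 were listed at 0 in all 6, Ckm in all but mouse 2278, Myh1 in WT mice 2277 and 2280, and Tnnt3 in mouse 2276. Hras itself was at 36.8, 36.0 and 51.8 FPKM in WT and at 58.8, 28.9 and 16.0 FPKM in HrasG12V mice, and a gene total does not show which allele was read.

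Most of the macrophage and C1q genes were higher on average in HrasG12V muscle, but none passed the adjusted test. Of the 9 tested genes, 8 had a log2 fold change above 0, with a median of 0.49, against a median of -0.030 over all tested genes. Of the 9, 1 gene, C1qa, had an unadjusted p below 0.05 and was higher in HrasG12V muscle, which is 11.1% of the members against 5.18% of all tested genes in that direction. No member was lower at that threshold, which 4.99% of all genes were. No member had an adjusted p below 0.05 (limma, Benjamini-Hochberg over all tested genes, 0.488 to 0.889), and 0.0599% of all genes did. Every HrasG12V mouse was above every WT mouse for 2 members, C1qa and Cx3cr1, and for 8.11% of all genes, and every HrasG12V mouse was below every WT mouse for 0 members and 10.4% of all genes. In whole muscle, more macrophages and more RNA of these genes per macrophage cannot be told apart.

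**Figure D1:**
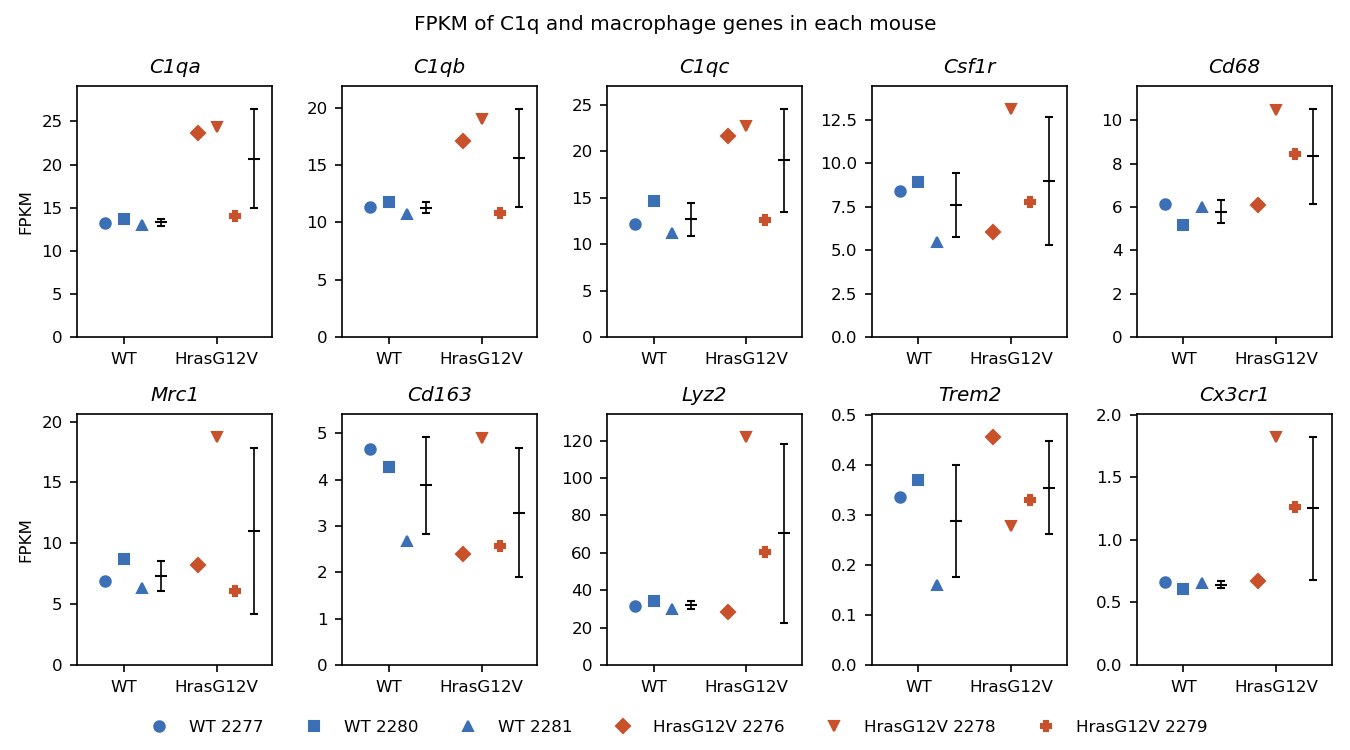
FPKM (vertical axis, linear, from 0) of each gene in the 3 WT mice (blue) and 3 HrasG12V mice (orange), with the mean and SD of each genotype as a black bar. C1q chains are high in mice 2276 and 2278, while Lyz2, Cd68 and Cx3cr1 are high in mice 2278 and 2279.

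The C1q chains were close to each other in level and differed mostly between HrasG12V mice. C1qa stood at 13.2, 13.7 and 12.9 FPKM in the WT animals (2277, 2280 and 2281 in this order) and at 23.7, 24.3 and 14.0 FPKM in HrasG12V mice 2276, 2278 and 2279. The genotypes did not overlap, but mouse 2279 exceeded the highest WT mouse only narrowly. The means were 13.3 ± 0.399 FPKM (SD, n = 3) in WT and 20.7 ± 5.77 FPKM (SD, n = 3) in HrasG12V muscle. On the log2 scale the fold change was 0.59 ± 0.24 (SE), with a 95% interval of 0.0099 to 1.17, an unadjusted p of 0.0472 and an adjusted p of 0.488 (limma). This p passed 0.05 by a small margin, and it was 0.109 without mouse 2276 and 0.135 without mouse 2278 (limma).

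C1qb, which encodes the B chain, stood at 11.4, 11.7 and 10.8 FPKM in WT and at 17.1, 19.0 and 10.9 FPKM in HrasG12V mice. Mice 2276 and 2278 were above every WT mouse and mouse 2279 lay within the WT range. The fit gave a log2 fold change of 0.43 ± 0.23 (SE), with an interval of -0.13 to 0.99 and an adjusted p of 0.588 (limma).

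C1qc, which encodes the C chain, stood at 12.1, 14.6 and 11.2 FPKM in WT and at 21.7, 22.7 and 12.6 FPKM in HrasG12V mice. The same animals were high, and mouse 2279 again lay among the WT mice. The log2 fold change was 0.54 ± 0.26 (SE), with an interval of -0.088 to 1.18 and an adjusted p of 0.541 (limma). Without mouse 2279 the unadjusted p was 0.0044 for C1qb, at a log2 fold change of 0.67, and 0.0050 for C1qc, at 0.81, but the adjusted p was 0.338 for both (limma). In that fit 4.80% of all genes were higher at an unadjusted p below 0.05.

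The chains kept nearly the same proportions in every library. The A chain gave 34.2% to 37.9% of the summed C1q FPKM, the B chain 27.4% to 30.9% and the C chain 32.1% to 36.5%. The sum was 36.7, 40.1 and 34.9 FPKM in WT and 62.4, 66.1 and 37.5 FPKM in HrasG12V mice. The ratio of C1qa to C1qb was 1.16 to 1.20 in WT and 1.28 to 1.39 in HrasG12V mice, so that the ranges did not overlap. No test was made of these ratios.

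The receptors for growth factor and chemokine did not follow C1q. Csf1r stood at 8.41, 8.93 and 5.49 FPKM in WT and at 6.05, 13.1 and 7.75 FPKM in HrasG12V mice. Only mouse 2278 was above the WT range. On the log2 scale the fold change was 0.19 ± 0.33 (SE), with an interval of -0.60 to 0.98 and an adjusted p of 0.889 (limma), and it was -0.12 without mouse 2278.

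Cx3cr1 was low in all mice, at 0.660, 0.608 and 0.655 FPKM in WT and at 0.674, 1.82 and 1.27 FPKM in HrasG12V mice. The genotypes did not overlap, but mouse 2276 stood just above the WT mice, and the difference lay in mice 2278 and 2279. The fit gave a log2 fold change of 0.77 ± 0.39 (SE), with an interval of -0.16 to 1.70 and an adjusted p of 0.554 (limma).

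The lysosomal genes Cd68 and Lyz2 were high in the same animals as Cx3cr1. Cd68 stood at 6.15, 5.19 and 6.02 FPKM in WT and at 6.07, 10.5 and 8.47 FPKM in HrasG12V mice. Mouse 2276 lay within the WT range, and the other two HrasG12V mice were above it. The log2 fold change was 0.49 ± 0.22 (SE), with an interval of -0.043 to 1.02 and an adjusted p of 0.519 (limma).

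Lyz2 was the most abundant member and had the highest fold change of the 9, with the widest interval. It stood at 31.7, 34.1 and 29.9 FPKM in WT and at 28.1, 122 and 60.6 FPKM in HrasG12V mice. Mouse 2276 was below every WT mouse, while mouse 2278 was 3.83 times the WT mean. On the log2 scale the fold change was 0.90 ± 0.50 (SE), with an interval of -0.31 to 2.10 and an adjusted p of 0.600 (limma). Lyz2 is also expressed by neutrophils, and the 11 neutrophil genes found summed to 2.76 to 6.19 FPKM in WT mice and to 24.3, 144 and 58.1 FPKM in mice 2276, 2278 and 2279. Their part in the Lyz2 values was not tested.

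With mouse 2276 left out, Cd68, Cx3cr1 and Lyz2 had log2 fold changes of 0.70, 1.13 and 1.43 and adjusted p of 0.0479, 0.0392 and 0.0519 (limma). In that comparison of 2 against 3 mice, 12.4% of all genes were higher and 17.4% lower at an unadjusted p below 0.05, against 5.18% and 4.99% with all mice. The share of all genes with an adjusted p below 0.05 was 9.66%, against 0.0599% with all mice. Mice 2278 and 2279 are those that carried the B cell and lymph node genes, and the part of these in the 3 values was not tested.

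The markers of resident macrophages gave no common direction. Mrc1 stood at 6.91, 8.67 and 6.35 FPKM in WT and at 8.17, 18.8 and 6.05 FPKM in HrasG12V mice. Mouse 2278 alone was high, mouse 2276 lay within the WT range and mouse 2279 below it. The fit gave a log2 fold change of 0.43 ± 0.41 (SE), with an interval of -0.56 to 1.41 and an adjusted p of 0.772 (limma), and it was -0.042 without mouse 2278.

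Cd163 was the 1 tested member with a log2 fold change below 0. It stood at 4.67, 4.27 and 2.67 FPKM in WT and at 2.40, 4.89 and 2.56 FPKM in HrasG12V mice. Mice 2276 and 2279 were below every WT mouse and mouse 2278 was above every one. The log2 fold change was -0.27 ± 0.34 (SE), with an interval of -1.07 to 0.54 and an adjusted p of 0.842 (limma).

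Trem2 was the lowest member, at 0.335, 0.369 and 0.160 FPKM in WT and at 0.456, 0.277 and 0.330 FPKM in HrasG12V mice. The genotypes overlapped, and the highest value was that of mouse 2276. In a fit without the filter on low values its log2 fold change was 0.26 ± 0.32 (SE) and its adjusted p 0.821 (limma).

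**Figure D2:**
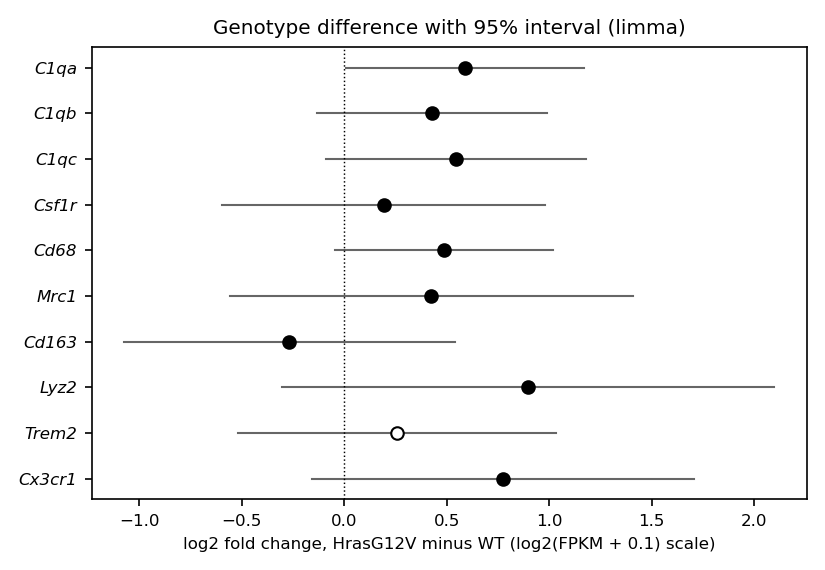
Log2 fold change of each gene between genotypes (horizontal axis, log2 of FPKM + 0.1, HrasG12V minus WT) with its 95% interval from limma. The open circle is Trem2, from the fit without the filter, and the interval of C1qa alone lies wholly above 0.

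Seen by mouse, the members moved together in 1 HrasG12V animal only. In mouse 2278, 9 of the 10 genes were above all WT mice and 0 below, with ratios to the WT mean from 0.963 to 3.83 and a median log2 difference of 0.85. Of all tested genes, 31.7% were above all WT mice in this animal and 44.9% below.

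In mouse 2276, 5 members were above all WT mice and 2, Cd163 and Lyz2, were below. The median log2 difference was 0.12, and of all tested genes 43.1% were above all WT mice and 38.0% below. The 5 were the C1q chains, which reached 1.78 times the WT mean, together with Trem2 and, by a small margin, Cx3cr1.

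In mouse 2279, 4 members (C1qa, Cd68, Lyz2 and Cx3cr1) were above all WT mice and 2 (Mrc1 and Cd163) were below. The median log2 difference was 0.067, and of all tested genes 33.7% were above all WT mice and 41.6% below. Mice 2276 and 2279 thus differed in which members were high: C1qb and C1qc in the former, Cd68 and Lyz2 in the latter. With 1 library per animal this difference between mice was not tested.

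**Figure D3:**
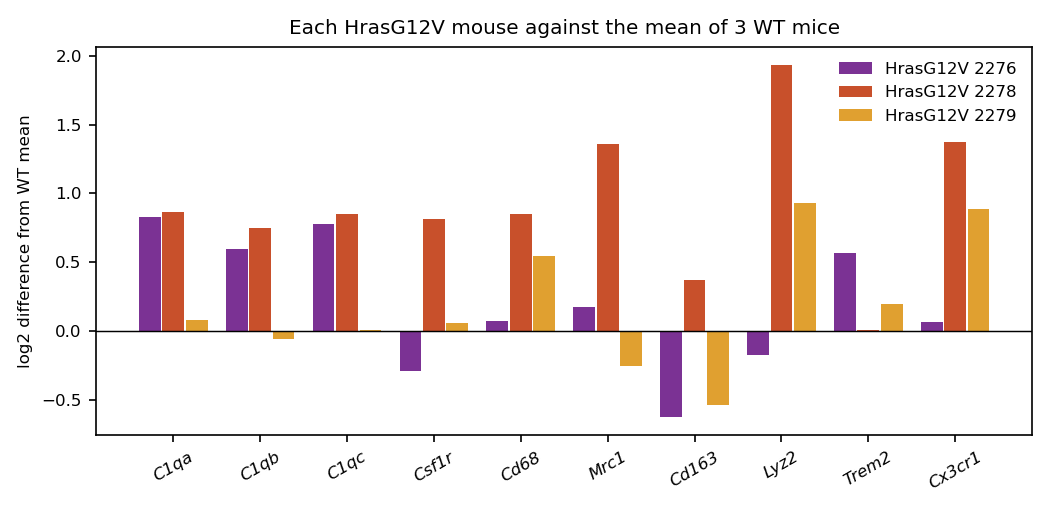
Log2 difference of each HrasG12V mouse from the mean of the 3 WT mice, per gene (vertical axis, log2 of FPKM + 0.1). Mouse 2278 is above all WT mice for 9 of the 10 genes, mouse 2276 for the C1q chains, Trem2 and Cx3cr1, and mouse 2279 for C1qa, Lyz2, Cd68 and Cx3cr1.

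The order of the levels per transcript length was almost the same in both genotypes. In WT muscle the mean FPKM fell from Lyz2 (31.9) through C1qa (13.3), C1qc (12.7), C1qb (11.3), Csf1r (7.61), Mrc1 (7.31), Cd68 (5.78) and Cd163 (3.87) to Cx3cr1 (0.641) and Trem2 (0.288). Neighbours whose WT ranges overlapped were C1qa and C1qc, C1qc and C1qb, and Csf1r and Mrc1. In HrasG12V muscle only Mrc1 and Csf1r changed places, and the ranges of neighbours overlapped from C1qa down to Cd68.

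Ratios within a library do not depend on the scaling of that library. Of the 45 ratios between members, 39 overlapped between the genotypes and 6 did not, and 5 of these 6 involved Cd163. The 6 are 13.3% of the members' ratios, against 19.4% of all ratios between the 13039 tested genes that were above 0 in every library. The ratio of Cd163 to Csf1r was 0.555, 0.479 and 0.487 in WT mice and 0.397, 0.372 and 0.331 in HrasG12V mice. Cd163 was therefore lower against Csf1r in each HrasG12V mouse, and 5.16% of the other tested genes were lower against Csf1r in the same way. The other such pairs set Cd163 against C1qa, C1qc, Lyz2 and Cx3cr1, and the sixth was C1qa against C1qb. No test was made of these ratios.

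Against Csf1r, summed C1q was 4.37 to 6.35 in WT and 10.3 in mouse 2276, but 5.03 and 4.84 in mice 2278 and 2279. The ratio of Lyz2 to Csf1r was 3.77 to 5.44 in WT and 4.65 in mouse 2276, but 9.30 and 7.82 in mice 2278 and 2279. Against Emr1, which encodes the macrophage marker F4/80, every HrasG12V mouse was above every WT mouse in both, as for 5.43% of the other tested genes against Emr1. Summed C1q over Emr1 was 14.5 to 17.3 in WT and 47.5, 17.8 and 23.9 in mice 2276, 2278 and 2279, and Lyz2 over Emr1 was 12.3 to 14.8 in WT and 21.4, 32.9 and 38.6. Which mice stood out therefore depended on the gene used as the base.

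**Figure D4:**
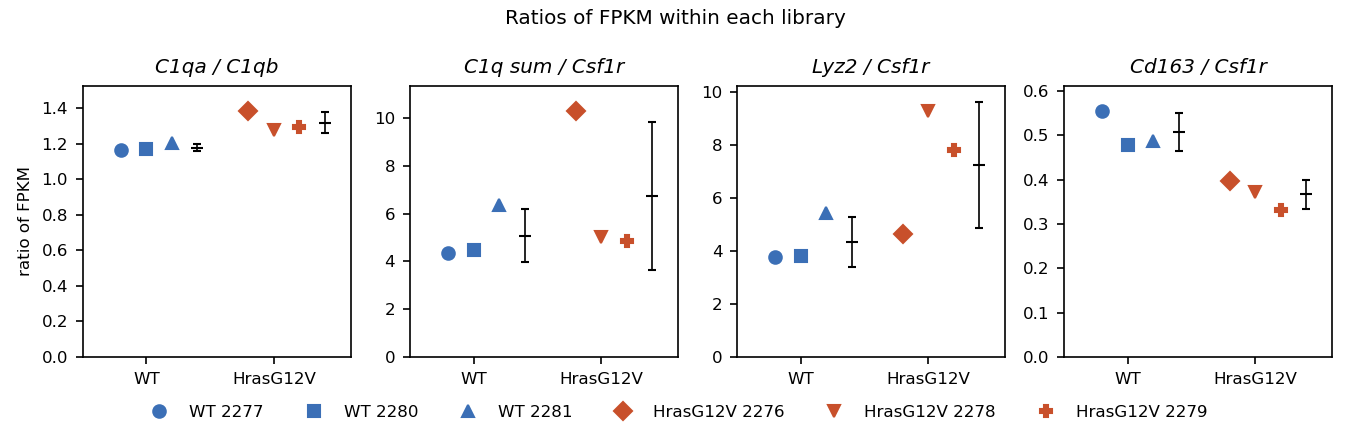
Ratios of FPKM within each library (vertical axes, linear, from 0) for WT (blue) and HrasG12V (orange) mice, with mean and SD in black. Cd163 to Csf1r and C1qa to C1qb do not overlap between genotypes, while the C1q sum over Csf1r is high in mouse 2276 alone.

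Among 14 ligands and signalling partners of the members, 6 were higher at an unadjusted p below 0.05, which 5.18% of all genes were. The list had a median log2 fold change of 1.18, and 0 of its genes passed the adjusted threshold (limma). Tyrobp, the adaptor of Trem2, stood at 8.31, 7.84 and 7.93 FPKM in WT and at 13.5, 26.7 and 19.6 FPKM in HrasG12V mice. Every HrasG12V mouse was thus above every WT mouse, as for 8.11% of all genes. Its log2 fold change was 1.25 ± 0.26 (SE), with an adjusted p of 0.318 (limma). The ratio of Tyrobp to Csf1r was 0.878 to 1.44 in WT and 2.04 to 2.52 in HrasG12V mice. This ratio was not tested, and no share of all genes was taken for it.

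Apoe, a lipid carrier that Trem2 binds, stood at 66.3, 71.0 and 58.4 FPKM in WT and at 120, 155 and 177 FPKM in HrasG12V mice. Its log2 fold change was 1.19 ± 0.23 (SE), with an adjusted p of 0.288 (limma), and no HrasG12V mouse came near the WT range.

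Transcription factors of the macrophage lineage were also in this list. Spi1, which encodes PU.1, stood at 1.23, 1.21 and 0.994 FPKM in WT and at 1.90, 4.75 and 3.61 FPKM in HrasG12V mice, with a log2 fold change of 1.41 and an adjusted p of 0.377 (limma). Irf8, a partner of PU.1 in monocytes and B cells, had a log2 fold change of 1.84 and an adjusted p of 0.343, and Cebpa, which acts in myeloid and fat cells, one of 1.12 and 0.433 (limma). Hcst, an adaptor akin to Tyrobp, had the highest log2 fold change of the list at 2.24.

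The ligands of Csf1r and Cx3cr1 did not pass the test, with log2 fold changes of 0.21 for Csf1, -0.41 for Il34 and -0.43 for Cx3cl1. The count of higher partners was 9 without mouse 2276, 4 without mouse 2278 and 4 without mouse 2279. Of all genes, 12.4%, 4.09% and 4.8% were higher in these fits, against 5.18% with all mice.

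Of 24 other complement components listed, 23 were found and 13 tested, with a median log2 fold change of 0.64. At an unadjusted p below 0.05, 2 were higher and 0 lower, against 5.18% and 4.99% of all genes. None passed the adjusted threshold (limma). The 2 were Cfd, complement factor D, which fat cells secrete, and Cfp, properdin, which myeloid cells make. Cfd stood at 24.3, 27.4 and 5.09 FPKM in WT and at 35.5, 154 and 122 FPKM in HrasG12V mice, with a log2 fold change of 2.53 and an adjusted p of 0.435 (limma). It was thus high in mouse 2279 too, where the C1q chains stood near WT. Cfp had a log2 fold change of 0.64 and an adjusted p of 0.455 (limma).

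The proteases that C1q activates, C1r and C1s, did not pass the test. C1ra stood at 5.45, 5.24 and 5.02 FPKM in WT and at 4.04, 8.71 and 7.29 FPKM in HrasG12V mice, and C1s1 had a log2 fold change of -0.046. In mouse 2276, where C1q was high, C1ra was below every WT mouse. C3, the central component, stood at 4.82, 5.16 and 2.68 FPKM in WT and at 2.28, 45.6 and 31.3 FPKM in HrasG12V mice, with an adjusted p of 0.614 (limma), and C7 had the lowest log2 fold change at -0.39. The number of higher components was 7 without mouse 2276 and 0 without mouse 2278. In these fits 12.4% and 4.09% of all genes were higher.

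Of 8 tested complement regulators, Clu, a chaperone that blocks the terminal complex, was higher, with a log2 fold change of 1.08 and an adjusted p of 0.449 (limma), and 0 were lower. The median was -0.074, and Cd55, which speeds decay of the convertases, was the lowest at -0.66. Of 8 tested receptors, Itgb2, the beta chain of complement receptor integrins, was higher at 1.84, and Cd93, once described as a C1q receptor and abundant on endothelium, was lower at -0.52. Their adjusted p were 0.490 and 0.477 (limma). Cr2, a B cell receptor for C3 fragments, had the highest value of this list at 2.86, and the median was -0.014. The counts of higher regulators and receptors were 0 both after rescaling to the same total FPKM and without moderation.

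Of 24 other genes used as general macrophage markers, 23 were tested. Among them 7 were higher, Cd14, Aif1, Tyrobp, Fcer1g, Ctss, Lgmn and Pld4, with a median log2 fold change of 0.51 and 0 past the adjusted threshold. The highest log2 fold change was that of Mpeg1, at 1.69 with an unadjusted p of 0.0954 (limma). Emr1 stood at 2.24, 2.76 and 2.01 FPKM in WT and at 1.31, 3.71 and 1.57 FPKM in HrasG12V mice. It was thus below every WT mouse in mice 2276 and 2279, with a log2 fold change of -0.22 and an adjusted p of 0.894 (limma). The count of higher genes was 10 without mouse 2276, 1 without mouse 2278 and 4 without mouse 2279. In these fits 12.4%, 4.09% and 4.8% of all genes were higher, against 5.18% with all mice.

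Lgmn, a lysosomal protease, stood at 25.1, 22.9 and 19.4 FPKM in WT and at 46.0, 38.2 and 25.0 FPKM in HrasG12V mice. Ctss, the cathepsin of antigen-presenting cells, stood at 4.97, 4.79 and 3.14 FPKM in WT and at 4.31, 21.9 and 18.8 FPKM in HrasG12V mice. Lgmn was thus high in mouse 2276, as the C1q chains were, and Ctss in mice 2278 and 2279, as Lyz2 was. Their adjusted p were 0.483 and 0.488 (limma).

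Of 16 tested genes of resident tissue macrophages, 1 was higher, Timd4 with a log2 fold change of 2.48, and 1 was lower, Cd36, a fatty acid transporter that muscle fibers and endothelium also express, with -0.84. The median was 0.21. Against the mean of the WT mice, the list's median log2 difference was 0.076 in mouse 2276, 0.95 in mouse 2278 and -0.46 in mouse 2279. Of 13 tested genes linked to Trem2 and the lysosome, Apoe was higher and 0 were lower, the lowest was Gpnmb at -0.39, and the median was 0.091.

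Genes of monocytes and of macrophages in lymph node and spleen differed more. Of 11 tested monocyte genes 5 were higher, among them Plac8, Chil3, Ms4a4c and Ifitm6, and 0 were lower, with a median of 1.82 and the lowest value for Fn1 (-0.97). After rescaling to the same total FPKM the count was 1 higher and 1 lower, and without moderation 1 was higher. The median log2 difference of this list was -0.013 in mouse 2276 but 2.45 and 2.04 in mice 2278 and 2279. Of 5 tested lymph node and splenic macrophage genes, Vcam1 and Timd4 were higher, the highest was Marco (3.59) and the lowest Siglec1 (0.76), and the list's median difference was -0.082, 3.05 and 3.37 in the 3 HrasG12V mice. Neither this list nor that of resident macrophages had a higher gene after total rescaling or without moderation.

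These lists followed the other immune genes from mouse to mouse, as genes of lymphocytes and lymph nodes were high in mice 2278 and 2279 but not in mouse 2276. Of 9 tested B cell genes 5 were higher, with a median log2 fold change of 3.52 over the 9 and the lowest value for Blk (2.97). Of 9 tested T cell genes 6 were higher, and the log2 fold changes of all 9 ran from 0.21 (Cd28) to 3.90 (Lck). Of 5 tested lymph node stroma genes 4 were higher, and all 5 ran from 2.11 (Ccl21a) to 6.87 (Glycam1). Of 8 tested neutrophil genes 6 were higher, and all 8 ran from 0.68 (Cxcr2) to 4.77 (S100a8). These counts also rest on the fit: without moderation 1 B cell gene, 0 T cell genes and 0 lymph node stroma genes were higher, against 5 neutrophil genes. The part of lymphoid tissue or neutrophils in the member values of mice 2278 and 2279 was not tested. In mouse 2276 the C1q chains were high while the lists for B cells, T cells and lymph node stroma summed to 1.85, 2.95 and 6.97 FPKM, against up to 1.54, 4.08 and 7.93 FPKM in WT mice. The neutrophil genes, at 24.3 FPKM in that mouse against up to 6.19 FPKM in WT, were high there as well. So were the fast muscle genes, which summed to 112202 FPKM in mouse 2276, against 55010 to 75987 FPKM in WT and 60019 and 42764 FPKM in mice 2278 and 2279, and the part of this in the C1q values was not tested.

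**Figure D5:**
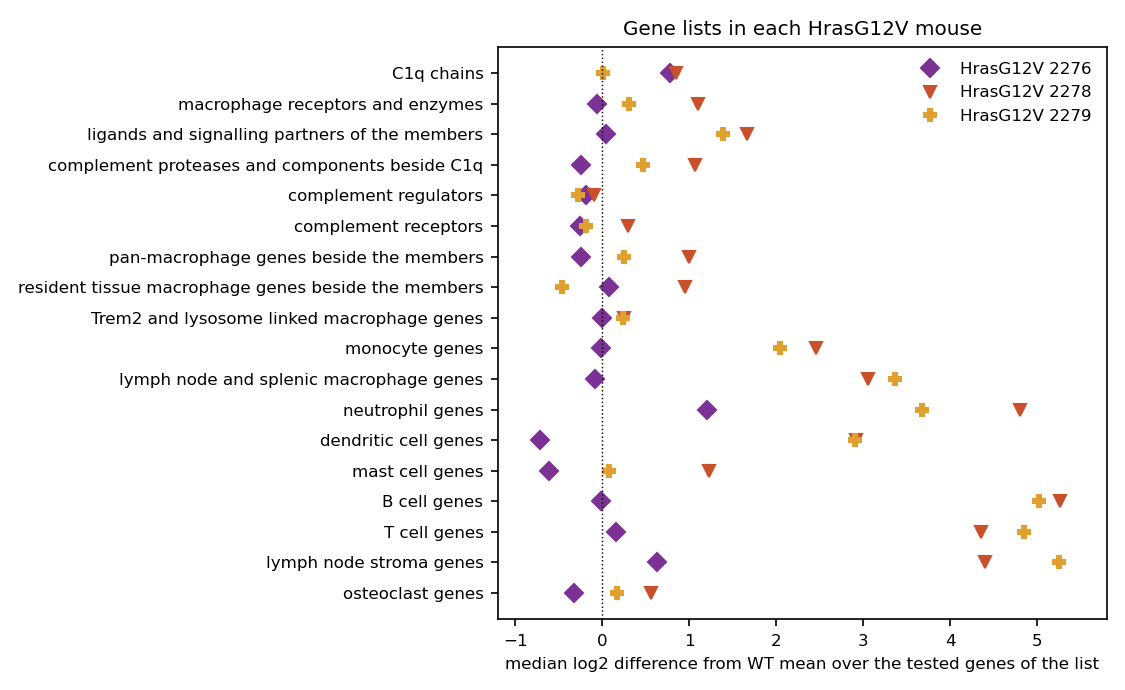
Median log2 difference from the WT mean over the tested genes of each list (horizontal axis), for the 3 HrasG12V mice. Lists for B cells, T cells and lymph node stroma lie from -0.013 to 0.62 in mouse 2276 and from 4.36 to 5.26 in mice 2278 and 2279, while the C1q chains are high in mice 2276 and 2278.

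The genes whose level over the 6 libraries was most like that of the C1q chains were taken as those with the highest Pearson r on the log2 scale with the mean of the chains. Among the 5 highest were Ifi27 (0.991), Mir7067 (0.987), Ifit3 (0.982) and Mir719 (0.982). Ifi27 and Ifit3 are interferon-induced genes, and Ifi27 stood at 29.9, 33.6 and 31.2 FPKM in WT and at 52.6, 58.7 and 30.3 FPKM in HrasG12V mice, the same order of HrasG12V mice as for C1q. Mir7067 was listed at 0 in 4 libraries. The genes most like Mrc1 were Prc1 (0.997), Vash2 (0.985), Plat (0.984), Dnajb1 (0.979) and Ifit1 (0.975), all highest in mouse 2278. With 6 points that share their libraries and scaling, and 13359 genes tested, high values arise easily, so no p is given.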

How the data were processed

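RNA from gastrocnemius muscle of 3 WT and 3 HrasG12V mice was sequenced from stranded mRNA libraries, 1 per mouse. The authors aligned reads with TopHat to GRCm38 (mm10) and made the deposited FPKM values per gene with Cufflinks and Cuffnorm, per the labels and methods. For tool versions and annotation the entry is: not given in the sources used here. Low FPKM values mostly did not fall on whole-read steps. In pairs of libraries, 1.21% to 7.29% of genes lay in the fullest interval of 1%. The share was 5.86% to 7.29% between WT libraries and 2.43% to 3.1% between WT libraries and mouse 2279. In the other pairs it was 1.21% to 1.72%, and the cause of this difference was not tested. The depth behind each library's values is therefore not known from the files, and no count test was run. The methods state one read target for all samples. Groups came from the genotype labels. log2(FPKM + 0.1) of the 13359 genes with a mean of at least 0.5 FPKM was fitted with limma 3.58.1 (R 4.3.3, trended empirical Bayes), genotype only, with Benjamini-Hochberg adjustment over all of them. Fold changes are on that scale, which understates changes of low genes. "Higher" and "lower" in counts mean an unadjusted p below 0.05. The script was tested on simulated data. The members, the 19 gene lists (210 genes named, 209 found) and the rule for named genes were chosen with earlier results of these data known. That rule names the members, each list's highest and lowest gene and those with an unadjusted p below 0.05, and the 5 genes most like C1q and Mrc1. Csf1, Il34, Cx3cl1, C1ra, C1s1, C3, Emr1 and Mylpf were added for their roles after values were seen. Lists share genes (such as Tyrobp, Apoe and Timd4), and some genes the rule names are not reported here. Alternatives changed the pseudocount, filter, scaling, moderation and weights, and left out mice.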

Additional observations from a re-analysis of the deposited data

How the results depend on the processing

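Across 17 alternatives, 152 values of the 9 tested members were compared, of which 129 kept their direction and side of the 0.05 threshold, 11 passed it newly, 7 lost it and 5 changed direction. The 7 losses were all C1qa: the unadjusted p (limma) was 0.0781 after rescaling to the same total FPKM, 0.0845 without moderation, and 0.0975 to 0.135 without any 1 of WT mice 2277, 2280 and 2281 or HrasG12V mice 2276 and 2278. The number of members with an unadjusted p below 0.05, 1 in the fit reported, was 2 with quantile normalization, 0 with total rescaling or without moderation, 4 with array weights, 3 for mouse 2276 alone against WT, and 0 to 3 when any 1 mouse was left out. With an adjusted p it was 1 with array weights (4.28% of all genes), 2 for mouse 2276 alone (31.4%), and 0 to 2 with 1 mouse left out (0.0524% to 9.66%). The number of members with no overlap was 1 with total rescaling (11.8% of all genes), 7 for mouse 2276 alone (81.1%) and 2 to 4 with 1 mouse left out (22.8% to 48.2%). The members' median log2 fold change was 0.31 to 0.72 with 1 mouse left out and 0.074 for mouse 2276 alone. Direction changed for Csf1r (-0.12 to 0.43 with 1 mouse left out, negative without WT mouse 2281 or HrasG12V mouse 2278, and -0.29 for mouse 2276 alone), Mrc1 (-0.042 to 0.77), Lyz2 (-0.18 for mouse 2276 alone) and Trem2 (-0.0097 to 0.42). The cause was not tested. In the fit of mouse 2276 alone, that mouse was assumed to vary like the WT mice, and 25.5% of all genes were higher. Counts of higher genes in lists after total rescaling and without moderation were 2 and 2 for general macrophage genes (7 in the fit reported), 4 and 4 for partners (6), 1 and 1 for monocyte genes (5, and 2 with the filter at 1 FPKM), 4 and 1 for B cell genes (5), 3 and 0 for T cell genes (6), 3 and 0 for lymph node stroma genes (4), 5 and 5 for neutrophil genes (6), 1 and 0 for complement components (2), 1 and 0 for dendritic cell genes (1), 0 and 0 for lymph node and splenic macrophage genes (2), and 0 and 0 for complement regulators, complement receptors and resident macrophage genes (1 each). They were 1 and 1 for genes linked to Trem2 (1), 1 and 0 for fast muscle genes (0) and 0 for mast cell and osteoclast genes (0). Of all genes, 2.84% were higher after total rescaling and 4.15% without moderation, against 5.18% in the fit reported. For Trem2, which the filter removes, differences of values stand in for fits, and quantile normalization, median centring, moderation and array weights were not run. No paired analysis was possible because the genotypes share no replicate numbers. The files hold no read counts, so no counting error is given for low genes such as Trem2 and Cx3cr1, and with 3 mice a genotype the intervals of all tested members but C1qa include 0.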

Other observations

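Other cell types with genes close to those of macrophages were read. Of 7 tested dendritic cell genes 1 was higher, Ccr7, the receptor that guides dendritic cells and lymphocytes to lymph nodes, with a log2 fold change of 3.81 and an adjusted p of 0.450 (limma). It stood at 0.0386, 0.0384 and 0.0447 FPKM in WT and at 0.128, 4.55 and 7.15 FPKM in HrasG12V mice 2276, 2278 and 2279. Zbtb46, a transcription factor of classical dendritic cells and endothelium, was the lowest of the list at -0.41, with 1.48 FPKM in mouse 2276 against 2.87 to 3.24 FPKM in WT mice.

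None of 5 tested mast cell genes and none of 4 tested osteoclast genes had an unadjusted p below 0.05 (limma). Mast cell genes ranged from Cpa3 (0.052) to Kit (0.32) in log2 fold change. Among osteoclast genes, Acp5, a phosphatase also made by macrophages, stood at 2.15, 3.55 and 2.02 FPKM in WT and at 1.77, 11.5 and 8.82 FPKM in HrasG12V mice, and Ctsk, a collagen-cleaving protease, had the lowest log2 fold change at -0.87. None of 9 tested fast muscle genes passed the test either, with a range from Tnnt3 (-5.67, listed at 0 in mouse 2276) to Myh1 (8.10). In mouse 2276, 6 of the 9 were above all WT mice, with a median log2 difference of 1.09, against -0.14 in mouse 2278 and -0.32 in mouse 2279.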
